A study of Mus musculus with 13 samples.

Results

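The 10 genes described here, which set mammary cell identity or receive hormone and growth factor signals, were followed through 6 peak lists. They were Esr1, Pgr, Elf5, Prlr, Trp63, Egfr, Erbb2, Erbb3, Erbb4 and Ehf. Each was chosen by its symbol, and all 10 of the 10 were named in at least 1 list, out of 18562 genes named in any of them. The cells were 4T1, a line from a mammary tumor that arose spontaneously in a BALB/cJ mouse. The sg-Ctrl cells carried a non-targeting sgRNA, and the KO cells (KO-N13) carried a CRISPR/Cas9 knockout of Nup210 and, per the methods, came from a single expanded clone, so that the knockout and the clone cannot be told apart. H3K4me3 and H3K27me3 were profiled by ChIP-seq in sg-Ctrl and KO, with 1 library each, and NUP210 and NPC (antibody MAb414, which binds several nuclear pore proteins) in sg-Ctrl alone. With 1 library per condition there was no replicate check, no test of KO against sg-Ctrl was possible, and the 95% intervals below cover counting error only. The RNA-seq samples of the series, sh-Ctrl and sh-Nup210, were not analysed here.

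H3K4me3 marks the start sites of genes that are active or poised, and H3K27me3, laid down by Polycomb repressive complex 2, covers genes that are held silent. NUP210 is a membrane glycoprotein of the nuclear pore. In the mammary gland, estrogen receptor alpha (Esr1) and the progesterone receptor (Pgr) mark hormone-sensing luminal cells, the prolactin receptor (Prlr) and the ETS factor Elf5 drive the alveolar, milk-producing fate, and p63 (Trp63) maintains basal cells. Ehf is an epithelial ETS factor. Egfr, Erbb2, Erbb3 and Erbb4 are the ERBB family of receptors, of which Erbb2 has no known ligand and Erbb3 has little kinase activity of its own.

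The promoter sequences of 7 of the 10 genes were found in RefSeq GRCm38.p6, and 5 are shown because they stand for the chromatin states met below. Each runs 5′ to 3′ from 250 bases before to 50 bases after the annotated start, with every CpG in capitals, and is the reference mouse sequence rather than that of 4T1. The windows of Esr1 and Erbb2 lay inside an H3K4me3 peak in both libraries. That of Prlr lay under H3K27me3 in both libraries, that of Elf5 under H3K27me3 in KO but not in sg-Ctrl, and that of Erbb4 in no peak of either mark.
Esr1, chr10:4611739-4612038, + strand: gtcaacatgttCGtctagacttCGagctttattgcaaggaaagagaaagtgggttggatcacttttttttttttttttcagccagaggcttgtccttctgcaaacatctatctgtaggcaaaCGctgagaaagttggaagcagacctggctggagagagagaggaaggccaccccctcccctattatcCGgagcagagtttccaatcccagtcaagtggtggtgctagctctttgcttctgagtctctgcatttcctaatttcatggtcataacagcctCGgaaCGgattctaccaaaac
Erbb2, chr11:98412234-98412533, + strand: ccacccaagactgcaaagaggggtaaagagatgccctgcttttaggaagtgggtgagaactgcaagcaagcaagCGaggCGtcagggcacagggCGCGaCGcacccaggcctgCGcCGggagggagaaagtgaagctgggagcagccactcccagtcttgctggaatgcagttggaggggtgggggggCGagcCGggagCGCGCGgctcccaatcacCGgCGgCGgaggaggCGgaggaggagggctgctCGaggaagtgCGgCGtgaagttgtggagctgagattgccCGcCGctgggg
Prlr, chr15:10176988-10177287, + strand: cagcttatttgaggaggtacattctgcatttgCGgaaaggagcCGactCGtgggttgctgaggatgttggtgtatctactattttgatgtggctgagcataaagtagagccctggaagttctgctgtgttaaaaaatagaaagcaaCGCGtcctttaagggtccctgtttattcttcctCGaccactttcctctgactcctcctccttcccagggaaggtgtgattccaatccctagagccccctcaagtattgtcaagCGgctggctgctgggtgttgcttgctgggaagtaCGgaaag
Elf5, chr2:103411848-103412147, + strand: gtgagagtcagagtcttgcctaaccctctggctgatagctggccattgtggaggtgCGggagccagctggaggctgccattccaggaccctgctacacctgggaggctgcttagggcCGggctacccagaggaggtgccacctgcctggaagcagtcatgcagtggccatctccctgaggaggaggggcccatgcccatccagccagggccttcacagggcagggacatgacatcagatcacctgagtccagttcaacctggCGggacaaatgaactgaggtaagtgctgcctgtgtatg
Erbb4, chr1:69108010-69108309, - strand: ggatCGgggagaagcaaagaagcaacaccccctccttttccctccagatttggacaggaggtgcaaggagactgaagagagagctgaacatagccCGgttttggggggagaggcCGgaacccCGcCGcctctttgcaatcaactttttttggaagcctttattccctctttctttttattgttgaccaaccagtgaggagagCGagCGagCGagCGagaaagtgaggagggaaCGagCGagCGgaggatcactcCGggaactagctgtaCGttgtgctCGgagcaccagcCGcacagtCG
The Erbb2 window held 21 CpGs, the median of the windows of genes with a start site H3K4me3 peak in both libraries (21, 11310 windows). The Esr1 window held 6 and the Erbb4 window 17, so that CpG number did not order these genes by H3K4me3. Prlr held 8 CpGs and Elf5 held 3, against a median of 4 in the 2982 windows of genes with H3K27me3 in both libraries and no start site H3K4me3 peak, and 7 over all 32851 windows. Egfr held 15 CpGs and Pgr 6. The STAT5 motif TTCNNNGAA was in the second windows of Esr1 and Prlr and in 8.30% of all windows, each motif being sought on both strands. The Sp1 motif GGGCGG was in the Pgr and Egfr windows (35.7% of all windows), and TATAAA in the Pgr window (13.6% of all windows).

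The 10 genes fell into distinct chromatin states in sg-Ctrl cells. Esr1, Erbb2 and Erbb3 had H3K4me3 at the start site and no H3K27me3. Egfr had a narrow, weak H3K4me3 peak and a small H3K27me3 peak far downstream. Pgr, Elf5, Prlr, Erbb4 and Ehf had H3K27me3 over the gene body and no H3K4me3 at the start site. Trp63 had neither mark in any of the 4 lists. The member holding H3K4me3 in both libraries together with H3K27me3 in sg-Ctrl was Egfr, 1 of 10 against 3.59% of all genes. Of all genes in the lists, 4.9% had neither mark, and these are by construction genes named for a NUP210 or NPC peak. In a culture, fewer cells carrying a mark and less mark per cell cannot be told apart.

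**Figure D1:**
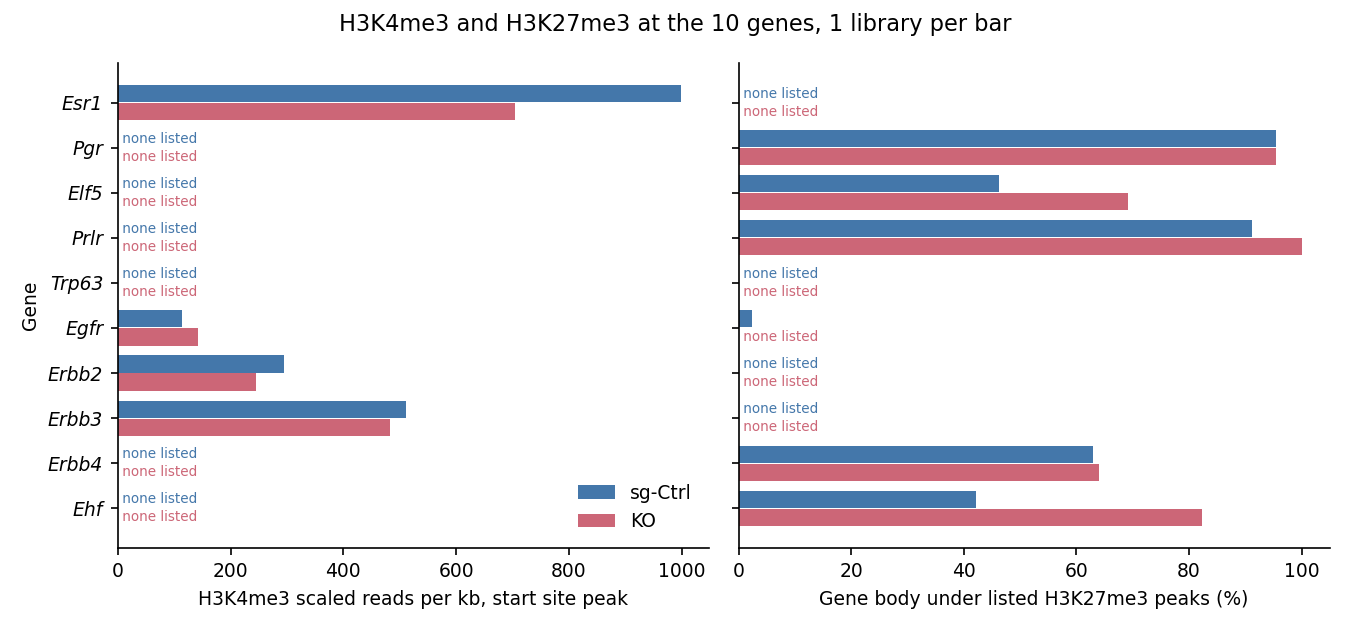
H3K4me3 in the start site peak (scaled reads per kb, left) and the share of the gene body under listed H3K27me3 peaks (%, right) in sg-Ctrl (blue) and KO (red) for the 10 genes, with 1 library per bar. Egfr alone has bars on both sides, both short, and the Ehf bar on the right went from 42.2% to 82.4%.

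The libraries set limits on these comparisons. Read counts were divided by the library size relative to IgG, giving scaled reads. The H3K27me3 library of KO was 3.16 times as deep as that of sg-Ctrl, and the H3K4me3 library 1.27 times. Start site H3K4me3 was lower in KO than in sg-Ctrl at 88.7% of the 12197 genes with a peak in both, with a median log2 ratio of -0.50, and scaling by the reads of shared peaks instead moved every H3K4me3 log2 ratio by 0.42 and every H3K27me3 ratio by -0.12. The labelled cell type was checked on its markers, where 65.7% of all genes had start site H3K4me3 in both libraries. The mark was listed in both for 8 of 8 epithelial genes and 1 of 6 basal or myoepithelial genes (Krt14). The counts were 2 of 5 for fibroblast genes, 0 of 4 for endothelial genes and 1 of 4 for blood genes (Cd68). The Nup210 start site held 885 and 913 H3K4me3 reads in sg-Ctrl and KO, which is no check of an edit in a coding exon.

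Start site H3K4me3 was listed in both libraries for 4 of the 10 genes (Esr1, Egfr, Erbb2 and Erbb3), against 65.7% of all genes. None of the 4 was at or under 0.5 of its sg-Ctrl level in KO (9.66% of all genes with a peak in both) and none was at or above 2 times (0.525%). Their median log2 ratio was -0.18, against -0.50 over all genes. Per kb, Esr1 lay at the median of all genes, Erbb2 and Erbb3 lay above it, at the 71.5th and 85.0th percentiles, and Egfr was higher in KO. In total scaled reads Esr1 was at -0.70, under the median of all genes (-0.32).

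Esr1, the estrogen receptor, had the highest H3K4me3 level of the 10 in both libraries. Its peak at chr10:4609601-4614200 held 4873 reads (95% Poisson interval 4737 to 5012) in sg-Ctrl, and the peak at chr10:4609801-4613800 held 3802 reads (3682 to 3925) in KO. The sg-Ctrl level of 999 scaled reads per kb compared with 705 for KO, above 91.5% and 95.2% of genes with a start site peak in the same library. The log2 ratio of KO over sg-Ctrl was -0.50 (95% interval -0.56 to -0.44), at the 49.8th percentile of all genes and above the median of its own chromosome (-0.63, 589 genes). The peak was narrower in KO, 4000 bp against 4600 bp, as at 27.1% of genes. The log2 ratio of its total scaled reads was -0.70, against a median of -0.32 over all genes. Under shared-peak scaling the ratio per kb was -0.079. The second RefSeq start of Esr1, chr10:4709908-4710207, had no H3K4me3 peak in either library.

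Erbb2, the orphan ERBB receptor, had 1063 reads (1000 to 1129) in a 3400 bp peak in sg-Ctrl and 1450 reads (1376 to 1527) in a 4400 bp peak in KO. The sg-Ctrl level of 295 scaled reads per kb compared with 245 for KO, above 18.8% and 20.9% of genes. Its log2 ratio was -0.27 (-0.38 to -0.15) per kb, but 0.10 in total scaled reads and 0.15 under shared-peak scaling, so that its direction depended on the measure. Erbb3, the ERBB member that signals through its partners, had 1845 reads (1762 to 1931) in 3400 bp in sg-Ctrl and 2475 reads (2378 to 2574) in 3800 bp in KO. The level was 512 and 483 scaled reads per kb, a log2 ratio of -0.08 with an interval that includes 0 (-0.17 to 0.0059). The ratio was 0.08 in total scaled reads and 0.34 under shared-peak scaling.

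Egfr, the epidermal growth factor receptor, was the exception in direction. Its peak had 192 reads (166 to 221) in sg-Ctrl and 306 reads (273 to 342) in KO, both over 1600 bp, and 1 IgG read in each list. The sg-Ctrl level of 113 scaled reads per kb compared with 142 for KO, among the lowest 5.24% and 8.34% of genes with a peak. The log2 ratio was 0.33 (0.062 to 0.60), at the 96.4th percentile of all genes, and it was positive under each scaling tried. The peak was shifted by 1 SICER window of 200 bp between the libraries, and 300 of the 300 bases of the promoter window lay in the sg-Ctrl peak and 252 in the KO peak.

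**Figure D2:**
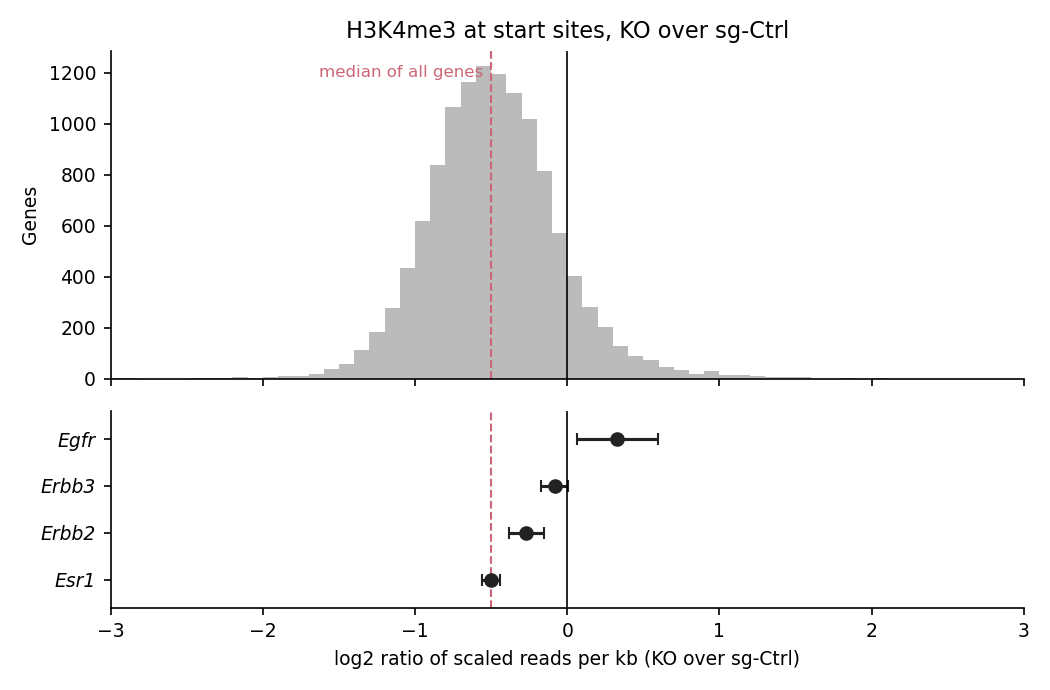
Log2 ratio of start site H3K4me3 (scaled reads per kb, KO over sg-Ctrl) for 12197 genes (grey histogram, values beyond the axis in the end bins) and for the 4 members with a peak in both libraries (points, bars are 95% intervals for counting error). The dashed line is the median of all genes, -0.50. Esr1 lies on it, Erbb2 and Erbb3 to its right and Egfr at 0.33, while the sign of Erbb2 and of Erbb3 changes under shared-peak scaling.

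The neighbors of these genes gave a local comparison. Within 100 kb of Erbb2, 5 of 6 genes had start site H3K4me3 in both libraries (65.7% of all genes). These 5 genes had 4 distinct peaks, and each gene had a lower log2 ratio than Erbb2. They were 1700003D09Rik and Stard3, which share a peak (-0.99), Pgap3 (-0.92), Mien1 (-0.87) and Grb7 (-0.43), an adaptor that binds ERBB2. Within 100 kb of Erbb3, 10 of 11 genes had the mark (65.7% of all genes). The ratios were from -0.72 for Myl6 and Myl6b, which share a peak, to -0.38 for Rab5b and Smarcc2, with Pa2g4, Esyt1, Rps26 and the peak shared by Zc3h10 and Rpl41 between them, except for Suox at 0.18, the single neighbor above Erbb3. Near Esr1, Syne1, which encodes the nuclear envelope protein nesprin-1, had a log2 ratio of -1.30, from 938 to 380 scaled reads per kb, and carried H3K27me3 and NUP210 peaks as well. The neighbors of Egfr with a peak, 2810442I21Rik and Fbxo48, share it and stood at -0.60. Beside the genes without start site H3K4me3, the marked neighbors were Arhgap42 near Pgr (-0.43), Cat near Elf5 (-0.69), Dnajc21 near Prlr (-0.62) and Leprel1 near Trp63 (0.19), and Erbb4 and Ehf had none. These genes were chosen by distance alone, and the difference between each receptor and its neighbors was not tested.

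The 6 other genes had no H3K4me3 peak at the start site in either library. The nearest listed peak was 335 kb away for Pgr (Arhgap42), 71.5 kb for Elf5 (Cat), 290 kb for Prlr (Dnajc21), 421 kb for Trp63 (Leprel1), 577 kb for Erbb4 (Ikzf2) and 180 kb for Ehf (Cat) in sg-Ctrl. In KO these distances differed by under 3 kb. Peaks away from start sites were not in the lists, so other H3K4me3 between these points cannot be read from them.

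H3K27me3 was listed on the gene body of 6 of the 10 genes in sg-Ctrl (26.8% of all genes) and of 5 in KO (27.6% of all genes). Egfr was listed in sg-Ctrl alone, 1 of 6 against 14.8% of the 4971 genes with a peak in sg-Ctrl. The bodies of the members under H3K27me3 summed to 934 kb in sg-Ctrl and 981 kb in KO, a ratio of 1.05, against 1.10 over all genes. It was 1.14 without Erbb4, which made up most of the length, and turned to 0.920 with peaks at least 2-fold over IgG. Among the 5 members marked in both libraries, Ehf was covered over at least 1.5 times the length in KO (18.3% of all genes marked in both), and none was covered over 1.5 times less (10.4%). The level in listed peaks was higher in KO at Pgr, though by less under shared-peak scaling, lower at Erbb4 and nearly equal at Prlr. The peaks at Ehf and Elf5 were too unlike in extent for levels to be compared.

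Ehf and Elf5, which both encode epithelial ETS factors, lie on chromosome 2 in opposite directions with 109 kb between them. Listed H3K27me3 peaks covered more of both gene bodies in KO. The lists hold only peaks that meet a gene body, so sg-Ctrl peaks between or beyond the genes would not be listed. The extent outside the gene bodies therefore cannot be compared. In sg-Ctrl, 4 separate peaks of 18, 57, 20 and 18 kb were listed, of which the 20 kb peak met the noncoding gene A930006I01Rik alone. In KO, a peak of 156 kb (chr2:103277001-103433000) ran from within Ehf over its start site and A930006I01Rik into Elf5, and another of 160 kb (chr2:103110001-103270000) lay over the 3′ end of Ehf and beyond. Since the 156 kb peak counts for both genes, their values in KO are not independent.

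The Ehf body was covered over 16.8 kb (42.2%) in sg-Ctrl and 32.8 kb (82.4%) in KO, a ratio of 1.95. Its peaks held 1613 ChIP and 912 IgG reads in sg-Ctrl, 2.09-fold over IgG, and 37161 ChIP and 3649 IgG reads in KO, 3.81-fold. These peaks summed to 75 kb in sg-Ctrl and 316 kb in KO, most of it outside the gene, so the summed reads and folds compare unlike regions and no ratio of levels at Ehf is given. The Ehf start site was inside a peak in both libraries.

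The Elf5 body was covered over 18 kb (46.3%) in sg-Ctrl and 26.9 kb (69.2%) in KO, a ratio of 1.49, just under the limit of 1.5 used for the counts. Its peaks held 409 ChIP and 152 IgG reads in sg-Ctrl (3.18-fold) and 15140 and 1690 in KO (3.35-fold). The KO peaks were 162 kb wide in all, against 18 kb in sg-Ctrl, and 14743 of the 15140 reads came from the peak shared with Ehf, so no ratio of levels at Elf5 is given. The sg-Ctrl peak began 2.90 kb downstream of the Elf5 start, outside the promoter window shown above, and the KO peak covered all 300 bases of it. The further Elf5 window at chr2:103423818-103424117, with 10 CpGs, was covered in both libraries.

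Inside the 156 kb, the 3 sg-Ctrl peaks covered 95 kb with 2140 ChIP reads, or 26.6 scaled reads per kb, and the KO peak had 14743 reads, or 35.3 per kb. These stretches differ in extent, so no ratio is given. The 61 kb between the sg-Ctrl peaks held 9.38 IgG reads per kb, against 11.4 under the peaks, and the sg-Ctrl ChIP reads there are not listed. The KO library was the deeper by 3.16 times, and the part of depth in joining peaks was not tested.

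**Figure D3:**
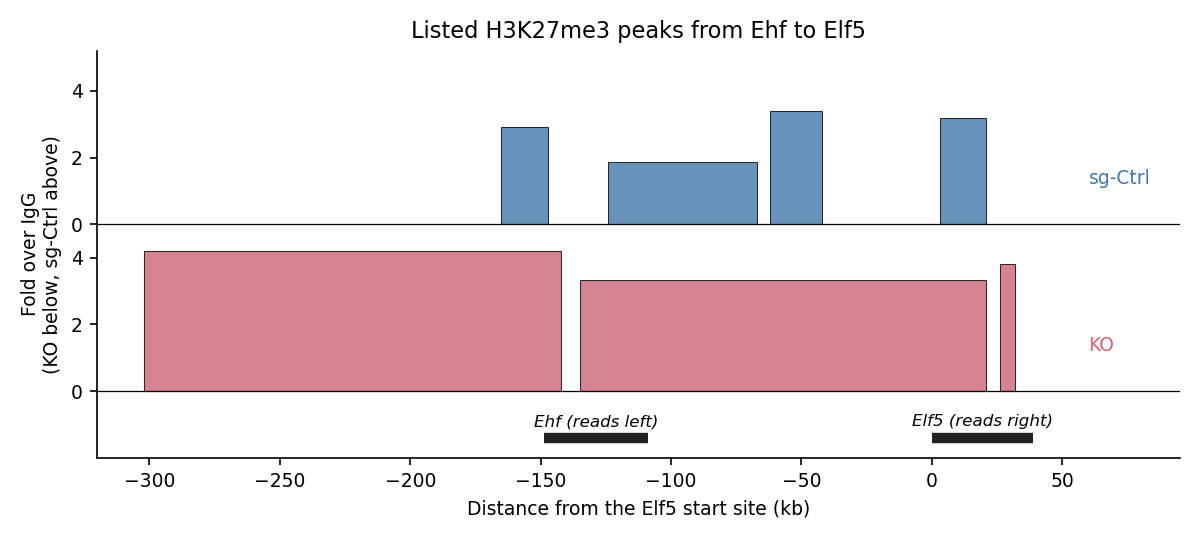
Listed H3K27me3 peaks from Ehf to Elf5 in sg-Ctrl (blue, upper) and KO (red, lower), as fold over IgG against distance from the Elf5 start site in kb; black bars are the gene bodies. The 4 sg-Ctrl peaks stand apart, and the KO peak of 156 kb spans the interval between the genes; sg-Ctrl peaks that meet no gene would not be listed.

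Pgr, the progesterone receptor, had the same 88 kb peak in both libraries (chr9:8903001-8991000), which covered 95.4% of the gene and began 3.17 kb downstream of the start of the listed transcript. The peak held 3647 reads (3530 to 3767) in sg-Ctrl and 13257 (13032 to 13485) in KO, with 1456 IgG reads in each list. The fold over IgG was 2.96 and 3.40, a log2 ratio of 0.20 (0.15 to 0.26), while the 832 peaks with equal coordinates in both lists had a median of -0.18. Under shared-peak scaling the Pgr log2 ratio was 0.078.

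Prlr, the prolactin receptor, was covered over 91.3% of its 172 kb in sg-Ctrl, in 4 peaks of 35, 11, 64 and 116 kb, and over 100% in KO, in a single peak of 247 kb that ran past the gene on both sides. The sg-Ctrl level of 49.3 scaled reads per kb compared with 51.1 for KO. The log2 ratio was 0.05 (0.018 to 0.085), and -0.073 under shared-peak scaling, so no direction can be given. The start site was inside a peak in both libraries.

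Erbb4, the neuregulin receptor linked to alveolar differentiation, is the longest of the 10 at 1068 kb and had 27 H3K27me3 peaks in sg-Ctrl against 24 in KO. They covered 63.0% and 64.0% of the gene, with 22368 ChIP and 12914 IgG reads in sg-Ctrl (2.05-fold) and 57227 and 13136 in KO (1.63-fold). The sg-Ctrl level of 39.3 scaled reads per kb compared with 31.3 for KO, a log2 ratio of -0.33 (-0.35 to -0.31), against -0.13 for the median of all genes and -0.07 for the 304 genes of chromosome 1. The ratio lay at the 24.9th percentile of genes with a peak in both lists and was lower than 0 under each scaling tried. The widest peak began 3.06 kb from the start site in both libraries, was 222 kb wide in sg-Ctrl and 221 kb in KO, and had a log2 ratio of -0.41 (-0.44 to -0.37). Outside the widest peak, the 26 other peaks of sg-Ctrl and 23 of KO covered 451 and 463 kb, and the fold over IgG was 1.68 in sg-Ctrl and 1.41 in KO. All 4 Erbb4 peaks with equal coordinates in both lists were lower in KO, with log2 ratios from -0.44 to -0.22. The 832 such peaks of all genes had a median of -0.18 and a 5th percentile of -0.69. Of the KO peaks, 7 of 24 had an FDR above 0.05, as had 4 of 27 in sg-Ctrl. Over all H3K27me3 peaks these shares were 6.29% and 4.48%.

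**Figure D4:**
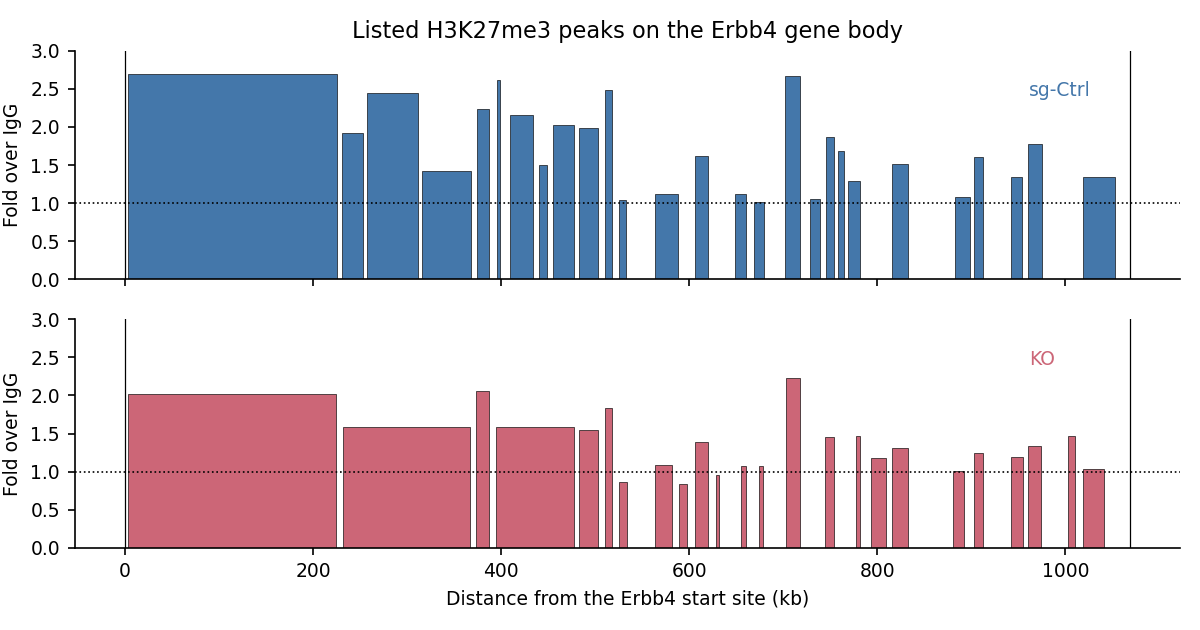
Listed H3K27me3 peaks on the Erbb4 gene body in sg-Ctrl (upper) and KO (lower), as fold over IgG against distance from the start site in kb. Bar width is peak width, the dotted line marks the IgG level and the thin lines the gene's ends. The widest peak, next to the start, stands at 2.69-fold in sg-Ctrl and 2.02-fold in KO.

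Egfr had a single H3K27me3 peak of 4 kb in sg-Ctrl (chr11:16891001-16895000), 139 kb from the start site, with 102 reads (83.2 to 124) and 70 IgG reads, 1.72-fold over IgG. No peak was listed there in KO, whose library was the deeper. Esr1, Erbb2, Erbb3 and Trp63 had none in either library. Trp63, which encodes p63, was named in the NUP210 and NPC lists alone, and Krt5 and Krt17, keratins of basal cells, were named in no list. Of the other basal or myoepithelial markers, Krt14 had start site H3K4me3 in both libraries, and Acta2 and Myh11 carried H3K27me3 in both.

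NUP210 peaks in sg-Ctrl lay on 6 of the 10 genes (33.9% of all genes) and NPC peaks on the same 6 (30.8%): Esr1, Pgr, Prlr, Trp63, Egfr and Erbb4. These are the 6 longest of the 10, at 68.8 to 1068 kb, and the 4 without a peak (Elf5, Erbb2, Erbb3 and Ehf) are the shortest, at 22.0 to 39.8 kb. Over all genes the share with a NUP210 peak was 22.3% under 20 kb, 32.1% from 20 to 40 kb, 44.9% from 40 to 80 kb, 58.9% from 80 to 160 kb, 67.8% from 160 to 320 kb and 85.6% from 320 kb, so that the presence of peaks on the members followed the order of gene length.

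The NUP210 signal was low throughout. The 54 peaks on the members had a median of 1.18-fold over IgG, 41 had an FDR of at most 0.05, 3 were below IgG and 0 reached 2-fold. The 13204 peaks of the whole list had a median of 1.19-fold, and 69.0% had an FDR of at most 0.05. Erbb4 had 28 peaks over 82.1% of its length with 24852 ChIP and 19639 IgG reads, 1.25-fold. Esr1 had 9 peaks over 25.5% of its length (1.19-fold), Pgr 3 over 79.4% (1.13-fold) and Prlr 4 over 60.3% (1.08-fold). Trp63 had 7 over 80.7% (1.05-fold) and Egfr 3 over 24.7% (1.07-fold). The highest single NUP210 peak on a member was in Egfr, at 1.68-fold.

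The NPC antibody gave 52 peaks on the same genes, with a median of 1.07-fold, 23 at an FDR of at most 0.05 and 12 below IgG, while the 11234 peaks of the whole list had a median of 1.10-fold and 51.7% had such an FDR. The 1 NPC peak of Pgr had an FDR of 0.090, which leaves 5 of the 10 genes at that limit. The fold summed over peaks was 1.21 for Esr1, 1.17 for Egfr, 1.08 for Erbb4, 1.07 for Pgr, 1.03 for Trp63 and 0.997 for Prlr. Of the NUP210 peaks, 21 of 28 on Erbb4, 7 of 9 on Esr1, 7 of 7 on Trp63, 4 of 4 on Prlr, 3 of 3 on Egfr and 2 of 3 on Pgr met an NPC peak. Of the 6 genes with NUP210 peaks, 4 carried H3K27me3 in sg-Ctrl (Pgr, Prlr, Egfr and Erbb4), against 36.8% of the 6291 genes with a NUP210 peak; gene length was not held equal. Ehf and Elf5, with covered length ratios of KO over sg-Ctrl of 1.95 and 1.49, had no listed NUP210 peak. Prlr, Erbb4 and Pgr, with ratios of 1.10, 1.02 and 1.00, had NUP210 peaks. A relation between covered length and NUP210 was not tested.

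**Figure D5:**
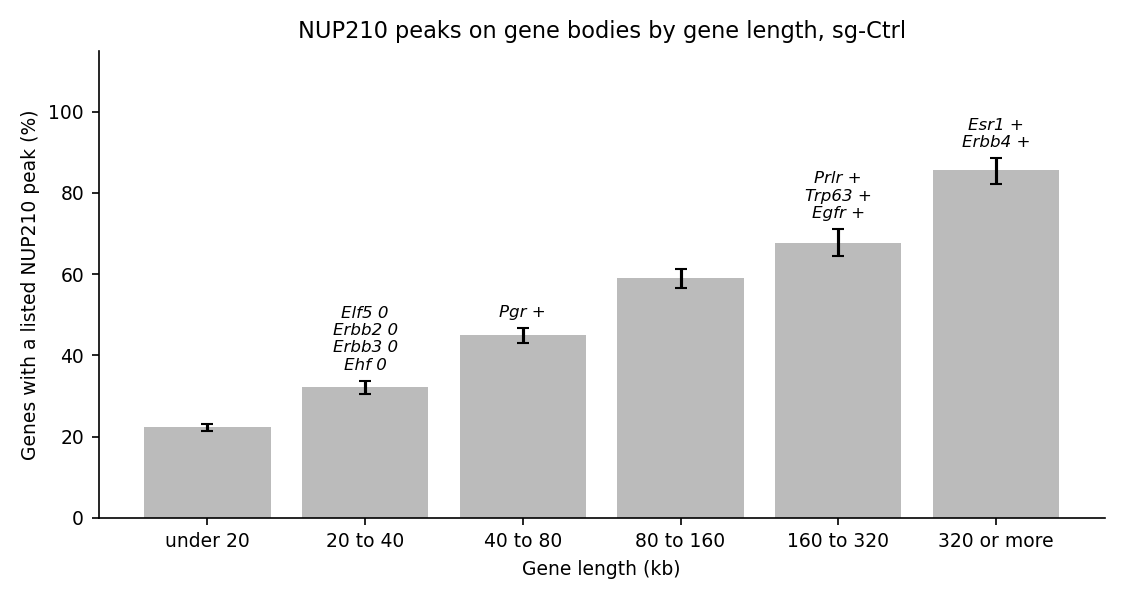
Share of genes with a listed NUP210 peak in sg-Ctrl (%, bars with 95% Wilson intervals) by gene length in kb, with the members of each class written above its bar; + marks a member with a peak and 0 one without. The share is 22.3% under 20 kb and 85.6% from 320 kb, and the 4 members without a peak are all in the class from 20 to 40 kb.

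The other genes of these pathways were read from lists fixed by role. Of 11 EGF family ligands, 5 had start site H3K4me3 in both libraries (65.7% of all genes): Tgfa, Areg, Btc, Hbegf and Nrg2. Their median log2 ratio per kb was -0.71, against -0.50 over all genes. In total scaled reads, 3 of the 5 were at or under 0.5 of sg-Ctrl (Tgfa -1.17, Areg -1.26, Hbegf -1.08), against 0 per kb. The median of all genes in total scaled reads was -0.32, and the share of all genes at or under 0.5 on that measure was not computed. Nrg2, a neuregulin, was higher in KO, at 112 and 146 scaled reads per kb (0.38, 0.18 to 0.58), and 0.17 in total scaled reads. H3K27me3 lay on 4 of the 11 in sg-Ctrl (26.8% of all genes) and 2 in KO (27.6% of all genes). The highest were Nrg4, covered over 44.6 kb in sg-Ctrl and 4.63 kb in KO (3.83-fold and 2.15-fold), Egf, covered over 29.3 and 28.3 kb (3.59-fold and 3.58-fold), and Btc, covered over 4.74 kb in sg-Ctrl alone (2.57-fold). Of the 11, 8 had a NUP210 peak (33.9% of all genes), and their lengths were from 7.70 kb for Epgn to 1104 kb for Nrg3. Gene length was not held equal, and over all genes the share ran from 22.3% under 20 kb to 85.6% from 320 kb.

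All 10 ERBB adaptors and inhibitors had H3K4me3 in both libraries (65.7% of all genes). None had H3K27me3 (26.8% of all genes in sg-Ctrl, 27.6% in KO). Their median log2 ratio was -0.43, and 2 of the 10 were at or under 0.5 (9.66% of all genes with a peak in both). These were Errfi1, a feedback inhibitor of ERBB kinases, from 472 to 188 scaled reads per kb (-1.33, -1.41 to -1.25), and Rnf41, which encodes a ubiquitin ligase for ERBB3, from 823 to 407 (-1.02, -1.08 to -0.96). The Rnf41 peak was 5 kb wide in sg-Ctrl and 7.8 kb in KO, and its total scaled reads had a log2 ratio of -0.38, no longer at or under 0.5, against -1.77 for Errfi1. Lrig1, at -0.71 per kb, was at -1.32 in total scaled reads, with a peak 23 kb wide in sg-Ctrl and 15 kb in KO. Under shared-peak scaling the log2 ratio was -0.91 for Errfi1 and -0.59 for Rnf41, and neither was at or under 0.5 of sg-Ctrl. Gab1, a docking adaptor, was higher in KO, at 335 and 453 (0.44, 0.34 to 0.53), and 1.44 in total scaled reads.

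Of 16 genes of the steroid and prolactin pathway, 13 had H3K4me3 in both libraries (65.7% of all genes), with a median log2 ratio of -0.25. Cited1, a coactivator that binds the estrogen receptor, was above 2 times its sg-Ctrl level, 1 of 13 against 0.525% of all genes with a peak in both. Its level was 58.7 and 128 scaled reads per kb (1.12, 0.81 to 1.45), from 112 and 310 reads. An H3K27me3 peak, 11.4-fold over IgG, met 0.181 kb of its body in sg-Ctrl, and none was listed in KO. H3K27me3 lay on Greb1, an estrogen-induced gene, over 27.9 kb in sg-Ctrl (5.74-fold) and 29 kb in KO (2.86-fold), and on Tnfsf11, the RANK ligand, over 3.56 kb in sg-Ctrl alone (1.75-fold).

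Of 12 other ETS genes, 8 had H3K4me3 in both libraries (65.7% of all genes), with a median of -0.35. None of the 8 was above 0 on the scaling by library size, against 5 of the 8 under shared-peak scaling. Ets1 was the lowest, from 1603 to 544 scaled reads per kb (-1.56, -1.60 to -1.52), but its peak was 6.2 kb wide in sg-Ctrl and 12.4 kb in KO, and its total scaled reads had a log2 ratio of -0.56. Fli1 and Erg carried H3K27me3, Fli1 over 99.8 kb in sg-Ctrl and 117 kb in KO (5.01-fold and 3.04-fold) and Erg over 84.4 and 101 kb (3.05-fold and 3.74-fold). Of 8 genes of the p53 family and basal partners, 5 had H3K4me3 in both (65.7% of all genes, median of the 5 -0.33) and 1 had it in sg-Ctrl alone. Of the 5, Krt14 was at or under 0.5 (9.66% of all genes with a peak in both). Trp73 had H3K27me3 over 8.21 kb in sg-Ctrl and 4 kb in KO (6.27-fold and 2.48-fold). None of 6 milk protein genes had H3K4me3 in either library (65.7% of all genes had it in both). H3K27me3 peaks were listed on 4 of them in each library (26.8% of all genes in sg-Ctrl, 27.6% in KO). The weakest was Csn1s2a, whose highest peak was 1.15-fold over IgG in sg-Ctrl and 0.852-fold, below IgG, in KO. The fold was 1.94 in sg-Ctrl and 1.29 in KO for Csn2 and 1.89 and 1.44 for Csn1s1, while Csn3 had a peak in sg-Ctrl alone (1.54-fold) and Lalba in KO alone, over 2.28 kb (3.15-fold).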

How the data were processed

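The data were 6 ChIP-seq peak lists from 4T1 cells. The labels' processing notes, read over the ChIP-seq and RNA-seq samples together, name Trimmomatic, STAR, Picard and Bowtie2. SICER, run by the authors on every library with IgG as control, used a 200 bp window at H3K4me3 and 1000 bp at broad marks. The authors deposited per peak the raw counts of ChIP and IgG reads, a p-value and FDR, and the fold over IgG, which is a library-scaled ratio. Lists hold only peaks meeting gene bodies (H3K4me3, start sites with 4 kb on each side). The notes name the builds mm9, mm10 and NCBIM37, and the build of the lists was matched to GRCm38 by the members' positions.

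The library size relative to IgG follows from the counts and fold of any peak (0.606 to 2.68), and ChIP reads were divided by it. Reads in listed peaks were 5866175 to 26811061 per library. Total depth beyond these ratios is unknown. For each gene the densest start site peak was used. H3K27me3 levels are scaled reads per kb of the listed peaks that meet the gene, and covered length was limited to the longest listed gene body; the bodies of Erbb2 and Erbb3, listed by their start sites alone, were taken from RefSeq GRCm38.p6. Intervals are 95% Poisson for reads, exact binomial for ratios and Wilson for shares. Overlap required 1 bp.

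The members and lists were chosen with earlier results of these data known. All 10 members were named. From the pathway lists, the text names up to 3 genes in each direction, over all lists together, by H3K4me3 log2 ratio (at least 100 reads in the higher library, overlapping peaks) and up to 3 per list by highest H3K27me3 fold in sg-Ctrl. Genes with H3K4me3 within 100 kb of a member were counted and named. Ligands and markers with the mark, Lrig1, Perp, Krt5, Krt17, Acta2, Myh11 and Csn1s2a were named after their values were seen. Alternatives were an FDR of at most 0.01 (0.05 for NUP210 and NPC), a fold of at least 2, other scalings, total reads, other choices of the start site peak, whole peaks and joined regions. Scripts were tested on simulated data and run in Python 3.11.15 (scipy 1.17.1, numpy 2.4.6, matplotlib 3.10.9, pandas 2.3.3). The RNA-seq samples were not used here.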

Additional observations from a re-analysis of the deposited data

How the results depend on the processing

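The cause of the following changes was not tested. The Erbb2 H3K4me3 log2 ratio turned from -0.27 to 0.15 with shared-peak scaling, 0.23 relative to the median of all genes and 0.10 in total scaled reads. That of Erbb3, whose interval includes 0, went from -0.08 to 0.34, 0.42 and 0.08 under the same alternatives. For Esr1 the ratio went from -0.50 to -0.079 with shared-peak scaling and -0.70 in total scaled reads. The Prlr H3K27me3 log2 ratio turned from 0.05 to -0.073 with shared-peak scaling, and that of Pgr went from 0.20 to 0.078. The covered H3K27me3 length of the members, 1.05 in KO over sg-Ctrl, was 0.920 with peaks at least 2-fold over IgG, and 1.38 with whole peaks. Whole peaks reach outside the genes, where a peak that meets no gene body would not be listed. Members with NUP210 and NPC peaks, 6 and 6, were 0 and 0 at 2-fold over IgG. NPC members were 5 at an FDR of at most 0.05, without Pgr. The joined-region ratios of Ehf and Elf5 are not given, since sg-Ctrl reads between peaks are not listed. In total scaled reads, an alternative for the pathway genes chosen after seeing the data, Ets1 and Rnf41 were at -0.56 and -0.38. Tgfa, Areg, Hbegf, Lrig1 and Perp, above 0.5 of sg-Ctrl per kb, went the other way, to -1.17, -1.26, -1.08, -1.32 and -1.10. The median of all genes in total scaled reads was -0.32. Under shared-peak scaling the log2 ratios of Errfi1, Rnf41 and Krt14 were -0.91, -0.59 and -0.58, so that none was at or under 0.5 of sg-Ctrl. Without Erbb4, an alternative chosen after seeing the data, the covered length ratio was 1.14. The numbers of members with H3K4me3 and with H3K27me3 peaks, and of members at or under 0.5 of sg-Ctrl in H3K4me3, stayed within 1.5 times their value under the alternatives run. No paired analysis was possible because each mark has a single library in sg-Ctrl and in KO, with no replicate numbers. With 1 library per condition no replicate could be left out.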
